A study of Mus musculus with 6 samples.

Results

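*Tcf21*, *Twist1*, *Tcf4*, *Prrx1* and *Maf* are 5 transcription factor genes. They were chosen by name, with earlier results of these data known, as genes of the gonadal interstitium. This is the tissue between the testis cords or around the ovarian germ cell nests. *Tcf4* and *Maf* were nevertheless highest in other cells, endothelial and immune. The 5 genes were found by symbol among the 26251 genes listed for 6 single cell libraries of mouse gonads at E15.5. Their levels were followed through interstitial cells, Leydig cells, pericytes, epithelial cells and supporting cells. These 5 cell types held 36566 of the 39350 cells that passed the filter. The groups were XY gonads that lacked both *Amh* and *Inhbb* in every cell (Amh-/-; Inhbb-/-, called dKO XY), and wild type XY and XX gonads (Amh+/+; Inhbb+/+, called control XY and control XX), all on a C57BL/6 background, with 2 libraries each. Each gonad pair came from a single embryo, and its cells were dissociated, frozen until the genotype was known and then thawed. The knockouts are global and constitutive, so that a difference in an interstitial cell cannot be assigned to the loss of a signal in that cell or elsewhere in the animal.

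TCF21 and TWIST1 are basic helix-loop-helix (bHLH) proteins with tissue-restricted expression in embryonic mesenchyme. Such proteins bind E-box motifs in DNA as dimers with broadly expressed E-proteins, one of which is encoded by *Tcf4*, and ID proteins block this by occupying the partner. PRRX1 is a paired-related homeodomain protein of limb, craniofacial and other mesenchyme. MAF is a basic leucine zipper protein that is known from the fetal gonadal interstitium and also from macrophages. In fetal gonads, TCF21 marks stromal progenitors, and the interstitium of the testis gives rise to the steroid-producing Leydig cells.

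In GENCODE M21 on GRCm38, the build the authors aligned to as mm10, *Tcf21* lies on chromosome 10 from 22817281 to 22820174 and *Twist1* on chromosome 12 from 33957671 to 33959829. *Prrx1* lies on chromosome 1 from 163245119 to 163313710. The lincRNA gene *Gm26523* lies on the same strand within the span of *Prrx1*, so reads from the stretch they share cannot be told apart by strand. *Prrx1*, *Tcf21* and *Twist1* had an entry in the RefSeq promoter table for GRCm38.p6. Their 250 bases before the RefSeq start of transcription are shown. *Maf* and *Tcf4* had no entry there, so the windows shown are all those available for the 5 genes. The windows are chr10:22820144-22820393 (minus strand) for *Tcf21*, chr12:33957421-33957670 (plus strand) for *Twist1* and chr1:163313651-163313900 (minus strand) for *Prrx1*. Those of *Tcf21* and *Prrx1* reach into the GENCODE gene, which starts further upstream than the RefSeq entry. Capitals mark any match to a searched motif.
Tcf21: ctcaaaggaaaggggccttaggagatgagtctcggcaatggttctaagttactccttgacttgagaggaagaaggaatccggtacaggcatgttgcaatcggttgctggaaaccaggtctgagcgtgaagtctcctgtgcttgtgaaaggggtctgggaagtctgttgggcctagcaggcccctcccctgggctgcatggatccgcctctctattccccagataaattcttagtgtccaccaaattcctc
Twist1: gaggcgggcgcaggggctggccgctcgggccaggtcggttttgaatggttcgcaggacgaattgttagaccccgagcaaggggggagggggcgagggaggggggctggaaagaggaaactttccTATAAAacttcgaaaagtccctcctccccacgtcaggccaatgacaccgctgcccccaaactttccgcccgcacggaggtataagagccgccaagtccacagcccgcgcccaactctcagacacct
Prrx1: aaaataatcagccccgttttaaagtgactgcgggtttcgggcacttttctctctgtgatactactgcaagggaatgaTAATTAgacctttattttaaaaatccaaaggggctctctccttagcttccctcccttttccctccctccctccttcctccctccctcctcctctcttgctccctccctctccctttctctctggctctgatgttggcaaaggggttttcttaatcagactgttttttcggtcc

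Both strands were searched for the E-box CANNTG, the homeodomain motif TAATTA, the TATA box TATAAA and TGCTGAC, a core of Maf recognition elements; these motifs do not overlap one another in the windows. No E-box was found in any of these 3 windows, whereas 66.2% of the 32851 promoter windows of the same length held one. TAATTA was found once, in the *Prrx1* window, against 4.8% of all windows, and TATAAA once, in the *Twist1* window, against 12.4% of all windows. TGCTGAC was in none of the 3 windows and in 3.8% of all windows. A match describes letters in a short window and says nothing of binding.

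The libraries held between 118475468 and 221675316 unique molecules (UMIs) in cells that passed the filter, and 4781 to 8569 such cells. The labels were checked with the deleted genes. *Amh*, the hormone of Sertoli cells, was at 1999 and 1861 CPM (UMIs scaled to a total of 1e+06 over the cells of that type) in control XY supporting cells, 17.8 and 15.6 CPM in dKO XY and 1.34 and 1.44 CPM in control XX. *Inhbb*, the beta B subunit of activin and inhibin, was at 158 and 181, 40.2 and 49.6, and 37.0 and 25.3 CPM in the same order. Whether the reads counted for either gene fall in its deleted part is not given in the sources used here. Cell types were rebuilt from clusters made without the 5 genes. Interstitial cells formed 3 clusters, one led by *Sostdc1*, *Msc* and *Inhba*, a cycling one with *Mki67*, and a stromal one led by *Il33*, *Gdf10* and *Lum*. The first held 65.2% and 64.0% of control XY interstitial cells and 51.1% and 44.6% of those of dKO XY, the cycling one 29.9% and 32.4%, and 35.8% and 44.5%, and the stromal one 4.92% and 3.64%, and 13.1% and 10.9%. Nearly all interstitial cells of control XX were in the stromal cluster, at 99.6% and 99.8%. A barcode was shared by more than 1 library in 175 of 39174 cases.

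*Tcf21* was highest in interstitial cells in all 3 groups, and *Twist1* likewise. In interstitial cells, *Tcf21* measured 768 and 578 CPM in control XY, 548 and 487 CPM in dKO XY and 541 and 798 CPM in control XX. Pericytes, the contractile cells along small vessels, had 98.8 to 169 CPM of *Tcf21* over the 6 libraries, and Leydig cells 41.7 to 65.8 CPM over the 4 XY libraries. The interstitial range lay above both of these ranges, and within interstitial cells both dKO XY libraries lay below both of control XY while control XX overlapped each. *Twist1* measured 226 and 200 CPM in control XY interstitial cells, at 130 and 124 CPM in dKO XY and at 68.7 and 84.8 CPM in control XX. Its 3 groups did not overlap there. Pericytes followed with 114 and 95.4 CPM in control XY, 100 and 94.6 CPM in dKO XY and 59.5 and 64.3 CPM in control XX, so that the pericytes of control XX also lay below both XY groups.

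*Prrx1* was highest in pericytes in all 3 groups. Pericytes had 65.8 and 69.3 CPM of it in control XY, 61.8 and 57.8 CPM in dKO XY and 260 and 212 CPM in control XX. Interstitial cells came next, with 17.4 and 17.0, 16.6 and 15.97, and 94.0 and 91.3 CPM, and here too the XX libraries stood far above the XY ones. Leydig cells held 9.78 to 11.98 CPM of *Prrx1*, and supporting cells 1.32 to 8.07 CPM over the 6 libraries.

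In the same annotation *Maf* lies on chromosome 8 from 115682942 to 115707794 and *Tcf4* on chromosome 18 from 69343356 to 69689079. *Maf* was led not by interstitial but by immune cells, which had 321 and 400 CPM in control XY, 382 and 721 CPM in dKO XY and 915 and 587 CPM in control XX. Interstitial cells had 229 and 234 CPM in control XY, 161 and 204 CPM in dKO XY and 406 and 342 CPM in control XX, with no overlap of the 3 groups. Pericytes had 137 to 208 CPM, which overlapped the interstitial cells of dKO XY. Leydig cells held 32.7 to 42.1 CPM.

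*Tcf4* was found at like levels in several cell types. Interstitial cells had 259 to 362 CPM over the 6 libraries, pericytes 237 to 317 CPM, epithelial cells 158 to 358 CPM and Leydig cells 181 to 225 CPM, and the ranges of the first 3 overlapped. Endothelial cells stood above them with 908 to 1137 CPM. Supporting cells had 91.0 and 107.8 CPM in control XY, 108.1 and 140 CPM in dKO XY and 235 and 199 CPM in control XX. The groups did not overlap, though the XY groups almost met.

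**Figure D1:**
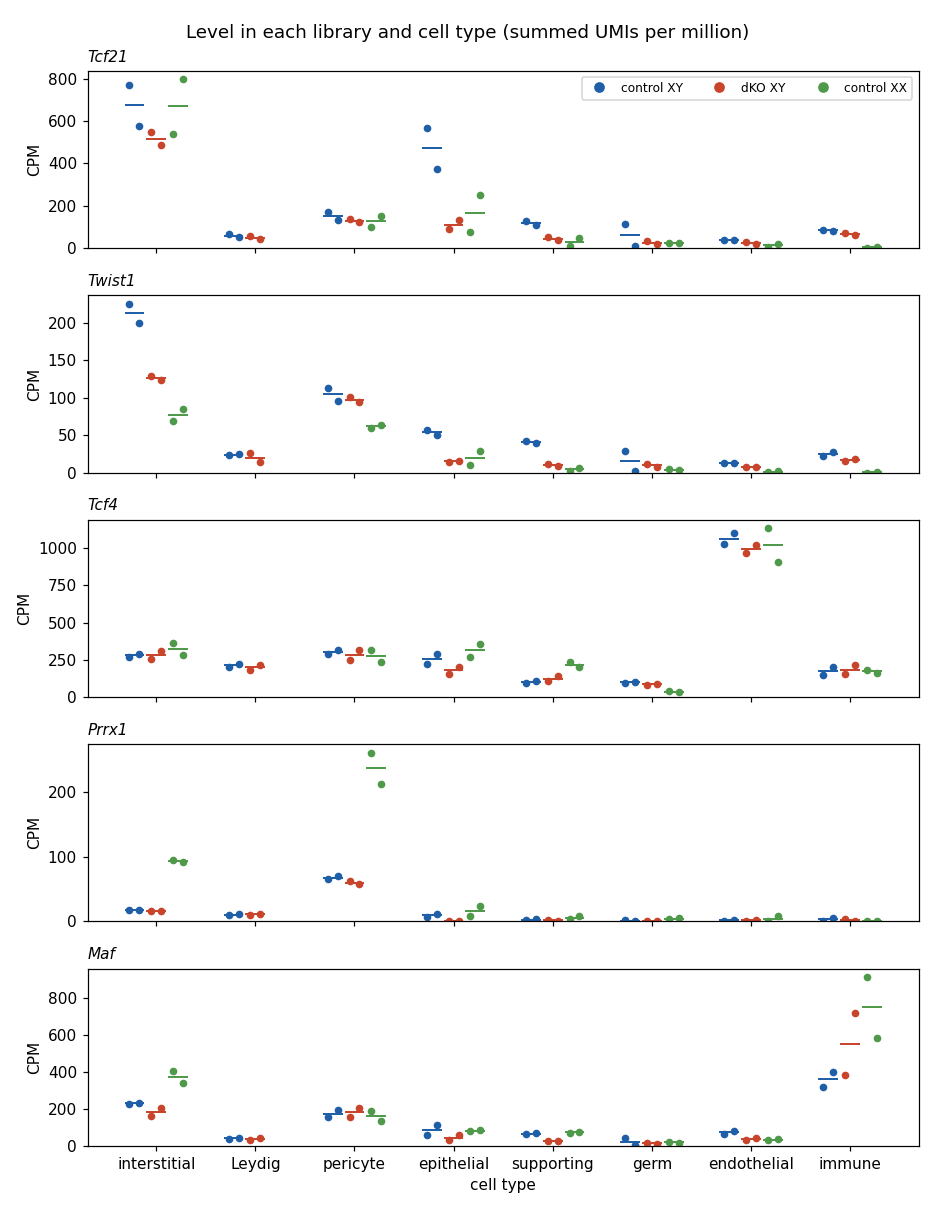
Level of each gene (CPM, linear axis from 0) in 8 cell types. Points are libraries, 2 per group, and short bars are group means; control XX has no Leydig cells. *Tcf21* and *Twist1* peak in interstitial cells, *Prrx1* in pericytes with the XX libraries at 212 and 260 CPM, *Maf* in immune cells and *Tcf4* in endothelial cells.

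The comparison of dKO XY with control XY asks what the absence of AMH and activin B changes in each cell type. In interstitial cells, *Twist1* fell and the other 4 genes did not pass the test. The level of *Twist1* averaged 127 CPM in dKO XY and 213 CPM in control XY, a log2 fold change of -0.75 ± 0.14 (SE, adjusted p = 0.0205, edgeR quasi-likelihood test). *Maf* had a log2 fold change of -0.35 ± 0.12 (adjusted p = 0.16), *Tcf21* of -0.38 ± 0.22 (adjusted p = 0.411), *Prrx1* of -0.08 ± 0.09 (adjusted p = 0.692) and *Tcf4* of 0.02 ± 0.12 (adjusted p = 0.954). The members called were thus 1 of 5, where 6.19% of the 16804 genes tested were called. The call for *Twist1* was lost when any single XY library was left out (adjusted p from 0.0537 to 0.148), with log2 fold changes that stayed between -0.84 and -0.65. The summed level of the 8 interstitial markers was also lower in dKO XY interstitial cells, at 5321 and 5446 CPM against 7404 and 7398 CPM in control XY, and its part in the difference was not tested.

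*Prrx1*, which was not called over all interstitial cells, was called in 2 of their 3 clusters. In the cluster led by *Sostdc1* and *Inhba*, *Prrx1* measured 13.2 and 11.9 CPM in control XY and 7.53 and 7.87 CPM in dKO XY. The fall there was -0.71 ± 0.11 on the log2 scale (adjusted p = 0.016), in a comparison that called 9.74% of genes. In the cycling cluster, it measured 15.8 and 15.3 CPM in control XY and 8.21 and 8.30 CPM in dKO XY, a fall of -0.89 ± 0.10 (adjusted p = 0.00901, with 6.17% of genes called). In the stromal cluster, the level was several times higher in each library, at 69.5 and 90.3 CPM in control XY and 74.1 and 81.6 CPM in dKO XY, and the groups overlapped (log2 fold change -0.07 ± 0.15, adjusted p = 0.999). The stromal comparison called none of its 13329 genes, with 948 at an unadjusted p under 0.05. Whether the effect of the knockout differs between clusters was not tested. The stromal cluster held a larger share of the interstitial cells of both dKO XY libraries, as given above. Leaving out the cycling cells turned the pooled value to 0.39 ± 0.09 (adjusted p = 0.039, with 7.57% of genes called). The comparisons by cluster were added after the data were seen.

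*Twist1* was lower in dKO XY in each of the 3 clusters, and called in 2 of them. In one of the finer clusters described below, it was not lower. It measured 242 and 213 CPM in control XY and 144 and 129 CPM in dKO XY in the *Sostdc1* and *Inhba* cluster (log2 fold change -0.74 ± 0.10, adjusted p = 0.011). In the cycling cluster it measured 223 and 189 CPM in control XY against 131 and 131 CPM in dKO XY (-0.63 ± 0.10, adjusted p = 0.0211). In the stromal cluster it measured 98.8 and 147 CPM in control XY and 78.6 and 73.2 CPM in dKO XY (-0.72 ± 0.20, adjusted p = 0.34). Its groups did not overlap in any of the 3 clusters, though the stromal comparison rests on 257 and 227 control XY cells. *Tcf21*, *Maf* and *Tcf4* were not called in any of the 3 clusters.

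**Figure D2:**
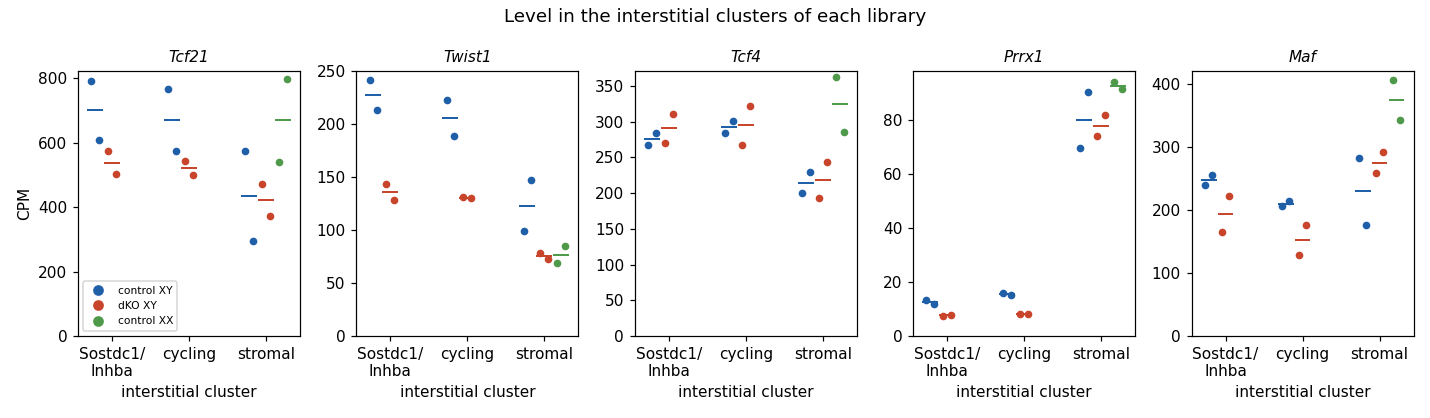
Level of each gene (CPM, linear axis from 0) in the 3 interstitial clusters. Points are libraries and short bars are group means; control XX is drawn only in the stromal cluster, which holds nearly all of its interstitial cells. *Prrx1* is between 69.5 and 90.3 CPM in stromal cells of both XY groups and between 7.53 and 15.8 CPM in the other clusters, where the dKO XY points lie below those of control XY.

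Control XX interstitial cells had more *Prrx1* and *Maf* and less *Twist1* than those of control XY. *Prrx1* averaged 92.7 CPM in XX and 17.2 CPM in XY, a rise of 2.49 ± 0.09 on the log2 scale (adjusted p = 1.67e-06). *Maf* averaged 374 and 231 CPM (0.75 ± 0.12, adjusted p = 0.00287), and *Twist1* 76.8 and 213 CPM (-1.40 ± 0.14, adjusted p = 0.000268). *Tcf21* (0.07 ± 0.22, adjusted p = 0.854) and *Tcf4* (0.27 ± 0.12, adjusted p = 0.15) were not called. The members called were 3 of 5, in a comparison that called 25% of all genes.

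This contrast sets the stromal cluster, in XX, against mostly other clusters, in XY. Within the stromal cluster alone, *Prrx1* was at 93.7 and 91.3 CPM in XX against 69.5 and 90.3 CPM in XY, and was not called (0.25 ± 0.14, adjusted p = 0.317). *Twist1* there was at 68.8 and 84.7 CPM against 98.8 and 147 CPM (-0.63 ± 0.19, adjusted p = 0.0609). *Maf* was called, with 407 and 342 CPM in XX against 283 and 176 CPM in XY (0.74 ± 0.19, adjusted p = 0.031). *Tcf4*, not called over all interstitial cells, rose in the stromal cluster, from 200 and 230 CPM in XY to 363 and 286 CPM in XX (0.63 ± 0.15, adjusted p = 0.0215). Here 11.7% of genes were called.

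Different finer clusters held most of these stromal cells in control XX and control XY. At the finer resolution, 1121 and 2072 of the 1526 and 2934 stromal cells of control XX were in a cluster led by *Ajap1* and *Il33*, which had 8 and 15 of the 257 and 227 of control XY. A cluster led by *Foxp2* and *Col8a1* had 177 and 141 stromal cells of control XY and 28 and 49 of control XX, and one led by *Crabp1* and *Gdf10* 69 and 61 against 366 and 794. In the stromal cells of the *Crabp1* cluster, *Prrx1* measured 97.9 and 90.5 CPM in XX and 55.0 and 62.6 CPM in control XY. In those of the *Foxp2* cluster it measured 115 and 131 CPM against 77.3 and 109 CPM, so that the XX libraries were above those of control XY in both. *Maf* had 315 and 288 CPM against 227 and 161 CPM in the *Crabp1* cluster, but 262 and 232 CPM against 313 and 196 CPM in the *Foxp2* cluster, where the groups overlapped. Over all cells of the *Crabp1* cluster, cycling ones among them, *Twist1* averaged 85.6 CPM in XX, 88.8 CPM in control XY and 89.5 CPM in dKO XY. In the *Foxp2* cluster it averaged 63.1 CPM in XX, 130 CPM in control XY and 71.9 CPM in dKO XY. No test was run within these finer clusters.

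Set against control XX, the interstitial cells of dKO XY had less *Prrx1* (-2.57 ± 0.09, adjusted p = 2.18e-06) and *Maf* (-1.10 ± 0.12, adjusted p = 0.000479) and more *Twist1* (0.65 ± 0.14, adjusted p = 0.0119), with 26.4% of genes called. Without the cycling cells the difference in *Prrx1* was -1.98 (adjusted p = 4.09e-06). In the stromal cluster alone, none of these 3 was called, *Prrx1* being at -0.32 ± 0.14, *Maf* at -0.51 ± 0.19 and *Twist1*, now of the opposite sign, at -0.09 ± 0.19. *Tcf4* was lower in dKO XY stromal cells, at 193 and 244 CPM (-0.64 ± 0.15, adjusted p = 0.0181), where 12.9% of genes were called. Here too the stromal cells lay in different finer clusters, since dKO XY had 360 of 610 and 186 of 306 in the *Foxp2* cluster and 40 and 14 in the *Ajap1* cluster that held most of control XX. Over all cells of each finer cluster, *Prrx1* was lower in dKO XY than in control XX. It averaged 38.1 against 91.2 CPM in the *Ajap1*, 51.5 against 94.4 CPM in the *Crabp1* and 93.0 against 129 CPM in the *Foxp2* cluster, with no test run. These comparisons use the same control XX libraries as the contrast with control XY.

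In pericytes, the XX gonad again had more *Prrx1*. The rise over control XY was 1.84 ± 0.15 on the log2 scale (adjusted p = 5.42e-06), and it stayed between 1.73 and 1.94 with any library left out. *Twist1* was lower in XX pericytes (-0.69 ± 0.16, adjusted p = 0.0188), a call that was lost without control XY replicate 1 (adjusted p = 0.176), control XX replicate 1 (0.0663) or control XX replicate 2 (0.056). With the replicate number as a block its adjusted p was 0.0549, and without the cells with the highest doublet scores 0.0529. The members called were 2 of 5, where 7.23% of genes were. The XX pericytes numbered 57 and 131 cells. Between dKO XY and control XY pericytes, none of the 5 genes was called and their log2 fold changes lay between -0.21 and 0.05, in a comparison that called 0.207% of genes.

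Leydig cells, the steroid-producing cells of the testis, were present in the XY groups alone, and none of the 5 genes was called between them, where 7.88% of genes were. *Tcf21* measured 65.8 and 51.1 CPM in control XY and 55.3 and 41.7 CPM in dKO XY (-0.30 ± 0.17, adjusted p = 0.353), and this value turned to 0.34 (adjusted p = 0.232) without the cells with the highest doublet scores. *Twist1* was at 23.3 and 24.6 CPM against 25.7 and 14.1 CPM (-0.30 ± 0.25, adjusted p = 0.533). The groups overlapped for both genes. Without dKO XY replicate 1, both were called, at -0.54 for *Tcf21* (adjusted p = 0.0331) and -0.82 for *Twist1* (adjusted p = 0.00262), and *Tcf21* also with the replicate block (-0.30, adjusted p = 0.0172) and with no filter on low counts (-0.31, adjusted p = 0.0352).

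At a finer resolution the Leydig cells fell into 2 clusters that differed widely in *Tcf21*, *Twist1* and *Maf*. The second of these also took in interstitial cells, 9 and 11 from control XY but 77 and 89 from the dKO XY libraries, and 1 Sertoli cell, which are left out of the values given here. The first cluster was led by *Npy*, *Cyp17a1* and *Star*, the last pair being genes of steroid synthesis, and had 16.4 and 14.6 CPM of *Tcf21* in control XY and 15.98 and 13.7 CPM in dKO XY. The other, led by *Cyp26b1*, had 215 and 164 CPM in control XY and 110.3 and 92.0 CPM in dKO XY. *Twist1* followed the same order, with 9.15 and 11.8, and 12.4 and 6.69 CPM in the first, and 65.9 and 64.3, and 44.3 and 27.4 CPM in the second. *Maf* was at 20.8 to 26.4 CPM in the first and 49.4 to 90.3 CPM in the second. *Prrx1* overlapped between the 2 clusters, at 8.33 to 13.6 CPM and 8.84 to 14.8 CPM, as did *Tcf4*, at 165 to 208 CPM and 202 to 277 CPM. The second cluster held 221 of 844 and 316 of 1184 Leydig cells in control XY but 355 of 812 and 324 of 851 in dKO XY, so that the values over all Leydig cells mix the clusters in different shares. The levels in the second cluster did not overlap between the XY groups for *Tcf21*, *Twist1* or *Maf*. No test was run there, and the share of all genes without overlap was not counted, so nothing particular to these genes is shown.

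Epithelial cells of dKO XY had less *Tcf21*, *Twist1* and *Prrx1* than those of control XY. *Tcf21* measured 566 and 375 CPM in control XY, 90.4 and 131 CPM in dKO XY and 76.8 and 251 CPM in control XX. *Twist1* was at 57.4 and 50.1, 14.3 and 15.4, and 10.5 and 29.3 CPM, and *Prrx1* at 6.85 and 11.6, 1.14 and 0.818, and 8.75 and 23.2 CPM. For all 3 genes, the control XY libraries lay above those of dKO XY without overlap. The falls in dKO XY were -2.08 ± 0.46 for *Tcf21* (adjusted p = 0.0212), -1.83 ± 0.41 for *Twist1* (adjusted p = 0.0229) and -3.21 ± 0.68 for *Prrx1* (adjusted p = 0.018), 3 of 5 members where 7.11% of genes were called. That of *Prrx1* rests on the lowest levels of the 3, at 11.6 CPM or less in both XY groups.

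*Maf* in epithelial cells measured 60.0 and 113 CPM in control XY, 30.7 and 59.2 CPM in dKO XY and 80.0 and 84.0 CPM in control XX, and its difference between the XY groups was not called (-0.95 ± 0.32, adjusted p = 0.103). It was called with the replicate block (adjusted p = 0.0302), with the 2 groups alone (0.0436), with no filter on low counts (0.00159) and without control XX replicate 1 (0.0447) or replicate 2 (0.044).

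The control XY epithelial cells numbered only 30 and 40. All 8 interstitial markers were present in them and summed to 7225 and 7567 CPM, as much as in the interstitial cells of the same libraries, against 1526 and 1749 CPM in dKO XY and 1663 and 4236 CPM in control XX. The name epithelial is therefore in doubt for the control XY cells. The 7 epithelial markers summed to 1725 and 1430 CPM in control XY and to 1357 and 871 CPM in dKO XY. Per 100 UMIs of the interstitial markers, *Tcf21* was at 7.84 and 4.96 in control XY and 5.92 and 7.50 in dKO XY, which overlap. *Twist1* was at 0.794 and 0.662 in control XY and at 0.936 and 0.881 in dKO XY, the higher. *Prrx1* was at 0.0949 and 0.153 in control XY and at 0.0749 and 0.0468 in dKO XY, still the lower. The part of the interstitial markers in the falls of these 3 genes was not tested. The calls for *Tcf21* and *Twist1* were lost without any one of the 4 XY libraries, with adjusted p up to 0.143 and 0.123, and that for *Tcf21* also in DESeq2 (-2.10, adjusted p = 0.0644). That for *Prrx1* was lost without control XY replicate 2 (adjusted p = 0.19) or either dKO XY library (0.0704 and 0.113), and its value was -3.85 without high doublet scores and -2.24 at the finer resolution. Between control XX and control XY epithelial cells none of the 5 genes was called, where 4.6% of genes were. Without control XX replicate 2, *Tcf21* (-2.58, adjusted p = 4.38e-05) and *Twist1* (-2.31, adjusted p = 0.000105) were. With the replicate block, both were called as well (adjusted p = 0.0426 and 0.0407), and so they were with no filter on low counts (2.02e-08 and 2.48e-05).

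In supporting cells, which are the Sertoli cells of the testis and the granulosa cells of the ovary, *Maf* and *Twist1* fell in dKO XY. Different clusters made up these cells in the XY groups. Of the cells in the Sertoli cluster, a finer cluster led by *Myl1* and *Cck* held 431 of 1233 and 475 of 970 in dKO XY but 13 of 261 and 21 of 538 in control XY. The granulosa cluster added 98 and 31 cells in dKO XY and 9 and 6 in control XY. All 9 and 6 of these control XY cells, and 27 and 5 of those of dKO XY, lay in a finer cluster named erythroid. *Maf* measured 63.6 and 69.4 CPM in control XY, 25.3 and 27.9 CPM in dKO XY and 71.1 and 76.8 CPM in control XX. Among supporting cells, *Maf* was thus low in dKO XY alone. Its fall was -1.31 ± 0.12 (adjusted p = 0.000119) against control XY and -1.416 ± 0.12 (adjusted p = 1.55e-05) against control XX, and the difference between control XX and control XY was not called (0.10 ± 0.12, adjusted p = 0.512). With cells of more than 1500 genes that difference was 0.52 and was called (adjusted p = 0.00967). Within the finer cluster led by *Cst9*, *Tesc* and *Amh*, the Sertoli cluster of the finer resolution, *Maf* measured 61.8 and 65.6 CPM in control XY and 19.98 and 16.6 CPM in dKO XY (-1.82 ± 0.14, adjusted p = 5.99e-06, with 17.4% of genes called).

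In supporting cells *Twist1* measured 42.6 and 39.4 CPM in control XY, 11.6 and 9.03 CPM in dKO XY and 2.16 and 6.07 CPM in control XX, with no overlap of the groups. The fall in dKO XY was -1.98 ± 0.35 (adjusted p = 0.00437), and that in control XX was -3.46 ± 0.38 (adjusted p = 4.97e-05). With cells of more than 1500 genes admitted, the former was -1.18 (adjusted p = 0.081) and the latter -2.42 (adjusted p = 0.00116). Within the finer Sertoli cluster the former was -2.10 ± 0.23 (adjusted p = 7.04e-05). The latter was -2.81 without control XX replicate 1 and -4.27 without control XX replicate 2, called in both. *Tcf21* was at 126 and 110, 50.5 and 36.0, and 10.7 and 47.1 CPM in the same order. Its fall was called between control XX and control XY (-2.11 ± 0.51, adjusted p = 0.00687) but not between dKO XY and control XY (-1.44 ± 0.50, adjusted p = 0.0835). The former was -1.38 without control XX replicate 1 and -3.49 without control XX replicate 2, called in both, and -2.80 without high doublet scores. With cells of more than 1500 genes it was -1.11 (adjusted p = 0.13), and within the finer Sertoli cluster the latter was -1.76 ± 0.24 (adjusted p = 0.000364). The latter was also -1.44 without control XX replicate 1 or replicate 2, and with the 2 groups alone it was called at -1.44 (adjusted p = 0.000243). The 2 control XX libraries, far apart for *Tcf21*, enter the shared estimate of the spread in the main test. Their part in the gained call was not tested.

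*Tcf4* took the opposite direction in the ovary, with a rise of 1.08 ± 0.17 over control XY (adjusted p = 0.000498), and dKO XY was lower than control XX (-0.75 ± 0.16, adjusted p = 0.00514). Between dKO XY and control XY it was not called (0.33 ± 0.17, adjusted p = 0.226), though with cells of more than 1500 genes it was (0.58, adjusted p = 0.0478), and within the finer Sertoli cluster its value was -0.24 (adjusted p = 0.294). *Prrx1*, at 8.07 CPM or less, was not called in either contrast with control XY. The contrast with control XX was called without control XX replicate 1 (1.34, adjusted p = 0.0149) and with no filter on low counts (0.81, adjusted p = 0.013), as was that with dKO XY with no filter (-0.91, adjusted p = 0.0211). Against control XX it was lower in dKO XY (-1.72 ± 0.43, adjusted p = 0.0106), a call lost without control XX replicate 2 (-0.97, adjusted p = 0.0783). Between the same groups, *Twist1* was the higher in dKO XY (1.47 ± 0.36, adjusted p = 0.00949), at 0.83 without control XX replicate 1 and 2.29 without replicate 2, and this call was lost in DESeq2 (adjusted p = 0.0559). *Tcf21* was not called there (0.67 ± 0.49, adjusted p = 0.309), but was without control XX replicate 2 (2.06, adjusted p = 2.64e-05) and with no filter on low counts (0.67, adjusted p = 2.88e-05). Members called were 2 of 5 between dKO XY and control XY, where 15.8% of genes were called, 3 of 5 between control XX and control XY, where 48.3% were, and 4 of 5 between dKO XY and control XX, where 40.5% were.

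The effect of the knockout in interstitial cells was tested against that in other cell types. Members that differed from supporting cells were 3 of 5 (*Twist1*, *Tcf21* and *Maf*), where 18.7% of genes did, and from Leydig cells 1 of 5 (*Tcf4*), where 11.5% of genes did. The call for *Tcf4* was lost in DESeq2 (adjusted p = 0.1) and without any one of the 4 XY libraries (0.0957 to 0.294). *Prrx1* did not pass against supporting cells (0.92 ± 0.29, adjusted p = 0.0549), but did with no filter on low counts (0.00171) and without control XY replicate 1 (0.0145) or dKO XY replicate 1 (0.000976). *Tcf4* did so without high doublet scores (-0.36, adjusted p = 0.0436). Against Leydig cells, *Twist1* did not pass (-0.38 ± 0.20, adjusted p = 0.282), but did with no filter (0.0014) and without dKO XY replicate 2 (-0.78, adjusted p = 0.00037). Without high doublet scores, *Maf* (-0.39, adjusted p = 0.00606) and *Tcf21* (-0.69, adjusted p = 0.00276) passed as well as *Tcf4*. The share of all genes that passed in that setting is not given here.

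Some of the supporting cell levels lie near those of cells not known for these genes. The interstitial markers summed to 1034 and 1287 CPM in control XY supporting cells, 722 and 575 CPM in dKO XY and 493 and 687 CPM in control XX. Immune cells of the same libraries had 982 and 1111, 673 and 737, and 59.3 and 148 CPM of these markers. They also had 22.5 and 28.1, 15.03 and 18.7, and 0 and 0.878 CPM of *Twist1*. Thinned to 5000 UMIs per cell, *Twist1* was found in 14.4% (95% exact binomial interval 10.5 to 19.2) and 12.7% (10.0 to 15.8) of control XY supporting cells, and in 6.29% (2.92 to 11.6) and 8.70% (4.25 to 15.4) of immune cells. In dKO XY, it was found in 4.21% and 3.20% of supporting cells and in 4.89% and 5.88% of immune cells, so that the dKO XY share was at the level of the immune cells. The same was true of *Tcf21* in dKO XY, with 13.6% and 10.9% of supporting cells and 13.6% and 10.8% of immune cells, against 25.2% and 22.4% and 15.4% and 18.3% in control XY. The intervals cover counting error only. The median depth was 25611 and 23113 UMIs in control XY supporting cells and 22337 and 20685 UMIs in immune cells. The unthinned shares for *Twist1* in control XY were 27.8% and 28.9% of supporting cells and 16.8% and 20% of immune cells.

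Set per 100 UMIs of the interstitial markers, *Twist1* was at 3.05 and 2.70 in control XY interstitial cells and 2.29 and 2.53 in immune cells, but 4.12 and 3.06 in supporting cells. In dKO XY these ratios were 2.43 and 2.28, 2.23 and 2.54, and 1.60 and 1.57. *Maf* in supporting cells was at 6.16 and 5.39 per 100 marker UMIs in control XY, above the 3.09 and 3.16 of interstitial cells, and at 3.50 and 4.85 in dKO XY against 3.02 and 3.74. For *Tcf21*, supporting cells had 12.2 and 8.55 in control XY, where interstitial cells had 10.4 and 7.82. In dKO XY they had 6.99 and 6.27, where interstitial cells had 10.3 and 8.94 and immune cells 10.4 and 8.47. A lower level of *Maf* in dKO XY was not limited to supporting cells. Endothelial cells had 66.5 and 79.5 CPM of it in control XY and 31.8 and 44.2 CPM in dKO XY, with no test run. In immune cells, where *Maf* was highest, the XY groups overlapped. How much of the supporting cell levels of these genes is RNA from other cells was not tested.

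**Figure D3:**
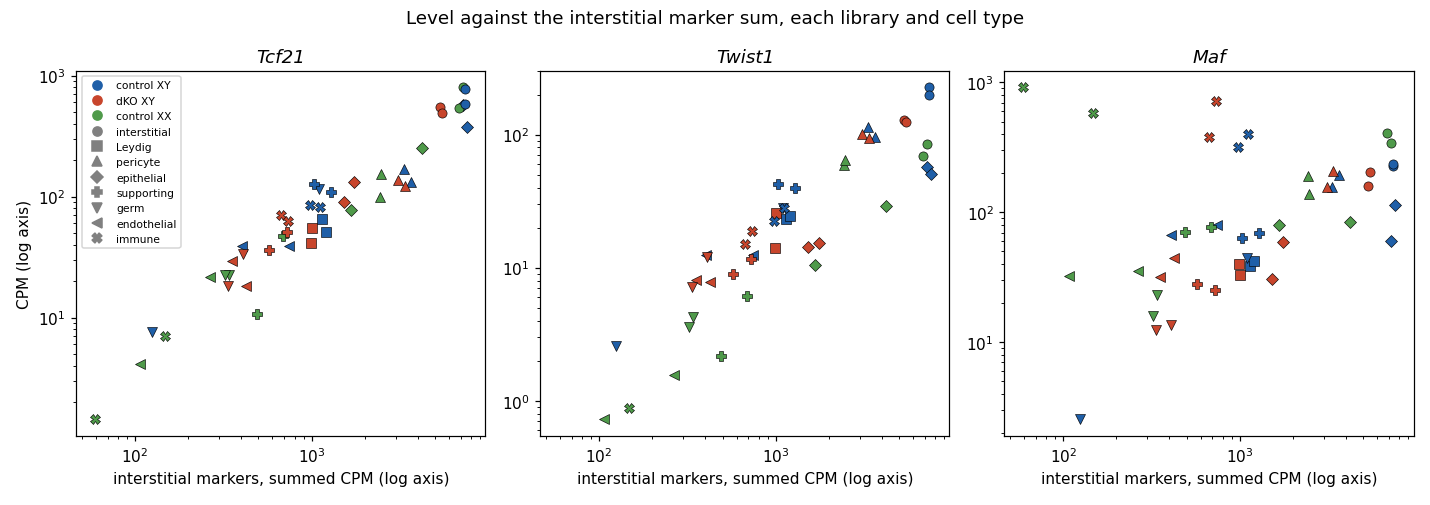
Level of *Tcf21*, *Twist1* and *Maf* (CPM, log axis) against the summed level of 8 interstitial markers (CPM, log axis), one point for each library and cell type. Color gives the group and shape the cell type, and 1 sum with no UMI of *Twist1* is not drawn. *Tcf21* and *Twist1* rise with the markers across cell types, with the XX interstitial cells low for *Twist1*, while *Maf* in immune cells lies far above that trend.

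**Figure D4:**
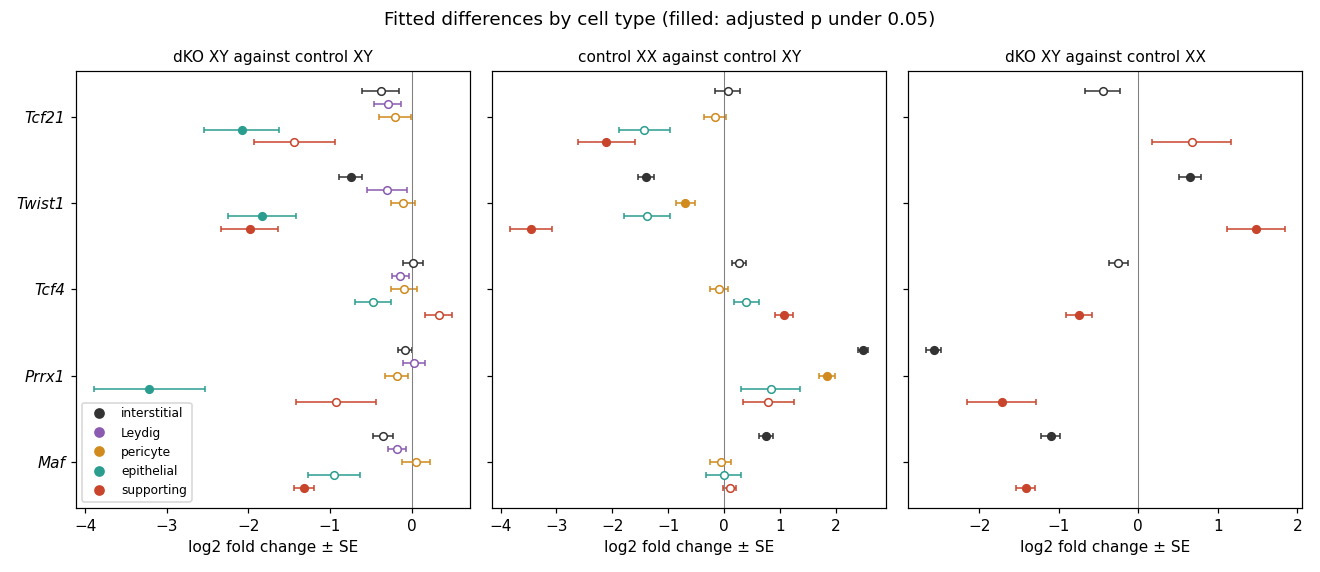
Log2 fold change with its standard error for each gene and cell type in 3 comparisons (edgeR, 2 libraries per group). Filled points have an adjusted p under 0.05. *Prrx1* in XX interstitial cells and pericytes lies at 2.49 and 1.84, and none of the Leydig cell or dKO XY pericyte points is filled.

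The other genes of these families were read from a list of 36, of which 33 were tested in interstitial cells. Between dKO XY and control XY, 4 rose and 3 fell, where 6.19% of all genes were called, and the median log2 fold change was 0.0047 beside -0.00496 over all genes tested. *Msc*, a bHLH gene, fell from 31.8 to 10.7 CPM (-1.57 ± 0.19, adjusted p = 0.0052) and *Osr1*, a zinc finger gene of urogenital mesenchyme, from 40.0 to 19.8 CPM (-1.01 ± 0.17, adjusted p = 0.0134). The forkhead gene *Foxp2* rose from 7.29 to 17.6 CPM (1.27 ± 0.20, adjusted p = 0.0102), but its value was -0.11 within the *Sostdc1* and *Inhba* cluster. *Osr1* was at 0.11 within the stromal cluster. The other genes that rose, named after their values were seen, were *Alx1* (2.57), *Tcf15* (1.21) and *Snai2* (0.45 on the log2 scale). The first 2 were low, with *Alx1* at 0.371 CPM in control XY and 2.21 CPM in dKO XY, and *Tcf15* at 2.00 and 4.64 CPM.

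Between control XX and control XY interstitial cells, 13 of the 33 genes rose and 8 fell, where 25% of all genes were called, with a median of 0.30 beside 3.97e-05 over all genes. As for the members, this contrast sets the stromal cluster, in XX, against mostly other clusters, in XY. The largest fall was that of *Msc*, at 33.4 and 30.1 CPM in control XY and 0.54 and 0.20 CPM in control XX (-6.54 ± 0.29, adjusted p = 4.34e-06). *Msc* is among the genes that lead the *Sostdc1* and *Inhba* cluster. In dKO XY against control XX it was at 4.97 over all interstitial cells but at -0.98 (adjusted p = 0.535) in the stromal cluster. *Id2* averaged 877 CPM in XX and 147 CPM in XY (2.65 ± 0.32, adjusted p = 0.000648), and *Id3*, like *Id2* an inhibitor of bHLH dimers, 1240 and 224 CPM (2.55 ± 0.42, adjusted p = 0.00306). *Id4*, named after its values were seen, also rose (1.78), and *Id1* did not pass the test. *Snai1*, a zinc finger repressor known from mesenchymal transition, averaged 71.3 and 21.3 CPM (1.83 ± 0.31, adjusted p = 0.00379). The E-protein genes *Tcf3* and *Tcf12*, the other dimer partners, were not called.

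In XX pericytes, 9 of 30 genes rose and 3 fell against control XY, where 7.23% of all genes were called, with a median of 0.31 beside 0.0034 over all genes. *Alx1*, a homeobox gene related to *Prrx1*, averaged 57.4 CPM against 2.98 CPM (4.55 ± 0.55, adjusted p = 0.000158), *Id2* 130 against 22.7 CPM (2.52 ± 0.32, adjusted p = 0.000221), *Meis2* 219.9 against 81.9 CPM (1.46 ± 0.15, adjusted p = 3.32e-05) and *Id4* 43.5 against 17.7 CPM (1.416 ± 0.24, adjusted p = 0.00239). The genes that fell included *Tcf15* (-1.46) and *Foxp1* (-0.69), named after their values were seen. The level of *Tcf15* was low, at 2.85 CPM in XX and 8.03 CPM in control XY. None of the 30 was called between dKO XY and control XY pericytes.

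Among the 31 genes tested in Leydig cells, where 7.88% of all genes were called, *Zeb1* rose in dKO XY (0.53 ± 0.10, adjusted p = 0.0174). *Msc* (-1.53) and *Osr1* (-1.17), named after their values were seen, fell as in interstitial cells, but from low levels. *Msc* averaged 0.861 CPM in dKO XY and 2.41 CPM in control XY Leydig cells, and *Osr1* 1.55 and 3.40 CPM. How much of this is RNA from other cells was not tested. In epithelial cells 2 of 28 genes rose and 6 fell in dKO XY, where 7.11% of all genes were called, with a median of -0.58 beside 0.047 over all genes and beside the lower interstitial markers given above. They included *Hand2*, a bHLH gene (-2.49 ± 0.61, adjusted p = 0.0348), *Nr2f1* (-2.07 ± 0.41, adjusted p = 0.0131), *Id2* (-1.89 ± 0.40, adjusted p = 0.0182) and *Meis2* (-1.76 ± 0.30, adjusted p = 0.00695). The 2 that rose, named after their values were seen, were *Tcf15* (2.73), from 1.07 to 7.31 CPM, and *Snai2* (1.09). In control XX epithelial cells *Nr2f1* (-1.83 ± 0.41, adjusted p = 0.0301) and *Snai1* (-2.22, named after its values were seen) fell and none rose, where 4.6% of all genes were called. *Snai1* was low, at 2.07 CPM in control XX and 9.96 CPM in control XY.

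In supporting cells, 1 of 32 genes rose in dKO XY and 9 fell, where 15.8% of all genes were called, with a median of -0.28 beside 0.014 over all genes. *Mafa*, another Maf family gene, measured 69.4 and 67.4 CPM in control XY, 6.19 and 3.29 CPM in dKO XY and 0.16 and 0.16 CPM in control XX, so that the groups were far apart (-3.84 ± 0.24, adjusted p = 1.56e-05 for dKO XY). *Prrx2*, the nearest relative of *Prrx1*, averaged 33.6 CPM in control XY and 6.77 CPM in dKO XY (-2.31 ± 0.17, adjusted p = 3.58e-05). *Zeb2* (-0.92 ± 0.13, adjusted p = 0.001) fell too, and *Snai2*, named after its values were seen, rose (0.70). In control XX, 7 rose and 15 fell (median -0.48 beside 0.033), where 48.3% of all genes were called, among them *Mafa* (-8.73 ± 0.35, adjusted p = 1e-07), *Scx* (-3.14 ± 0.27, adjusted p = 8.61e-06) and *Mafk* (-2.52 ± 0.26, adjusted p = 2.93e-05).

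Over 45 sums of a library and a cell type, *Tcf21* and *Twist1* were the most alike of the 5 genes, with a Pearson correlation of 0.916 between their log2 levels. *Prrx1* and *Twist1* followed with 0.67, while *Tcf4* had 0.016 with *Tcf21* and 0.036 with *Twist1*. These sums share libraries and cell types and are not independent. Among 13183 genes, those most like *Tcf21* were *Mfap4* (0.962), *Dlk1* (0.959) and *Col1a1* (0.954), and those most like *Twist1* were *Egflam* (0.965), *Col1a2* (0.96) and *Ednra* (0.947). *Col1a1* and *Col1a2* are among the interstitial markers that named the clusters. Nearest to *Prrx1* were *Gm26523* (0.902), which lies within it, *Pak7* (0.874) and *Larp6* (0.87). *Maf* was most like *Slc8a1* (0.897), *Calhm2* (0.88) and *Cxcl16* (0.879), and *Tcf4* most like *Itga5* (0.928), *Fscn1* (0.918) and *Casd1* (0.912).

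Within single cells thinned to 5000 UMIs, 3 or more of the 5 genes were found together in 67.1% and 64.5% of control XY interstitial cells, 50.8% and 52.6% of those of dKO XY and 71.3% and 69.5% of those of control XX. In pericytes the share was 34.1% to 43.9% over the 6 libraries, and in Leydig cells 4.19% to 7.11%. *Prrx1* was found in 34.3% and 34.5% of XX interstitial cells but in 6.52% to 7.41% of those of the 4 XY libraries. *Twist1* went the other way, at 58.8% and 55.1% of control XY interstitial cells, 40.1% and 38.8% of those of dKO XY and 27.4% and 31.2% of those of control XX. In immune cells, *Prrx1* was found in 0% to 1.92% of the cells of a library. The median depth of interstitial cells was 16336 to 22911 UMIs and that of immune cells 20326 to 24004 UMIs, and no cell was too shallow to be thinned.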

How the data were processed

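Gonads at E15.5 of 3 groups, with 2 libraries each, were profiled with 10x Genomics single cell libraries. Raw counts of unique molecules per gene and cell, without normalization, are what the authors deposited, made with Cell Ranger v3.0 and corrected for barcode swapping; the labels name Seurat 4.0 and mm10. The 5 genes and all gene lists were chosen with earlier results of these data known.

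Cells were kept that had over 2500 but under 9000 genes, under 25% mitochondrial and under 20% Hbb counts. They were clustered with Seurat 5.3.0 on R 4.3.3 (log normalization to 10000, 3000 variable genes less 28 that were members, related genes, *Amh* or *Inhbb*, 20 dimensions, resolution 0.21, and 0.5 for finer clusters). A cluster took the name of the marker class with the highest mean log2 fold over other cells, where at least 3 of its markers, of 86 in all classes, were in at least 10% of the cells and at 1.5 times the level elsewhere. A cluster of granulosa cells also held some erythroid cells. Doublets were not removed in the main analysis, since the automatic threshold of Scrublet (scanpy 1.11.5) marked only 1 to 250 cells per library, so the 8% with the highest scores were left out in an alternative.

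For each library and cell type with 10 or more cells, the counts of these cells were added up. They were tested with edgeR 4.0.16 (filterByExpr, TMM, glmQLFit and glmQLFTest) with the libraries of all groups in 1 fit, except Leydig cells, which had XY libraries alone. P-values were adjusted by Benjamini-Hochberg over all genes tested and called under 0.05. Differences between cell types in the effect of the knockout were tested as an interaction with the library as a block. Replicates are separate animals, and those of a group differed by far more than sampling noise. Genes named were the 5 members, *Amh* and *Inhbb*, up to 4 related genes per comparison with the largest called change and a mean log2 CPM of at least 3, and 3 genes of like pattern per member with at least 10 CPM in a sum; any other related gene was named after its values were seen. Some related genes that meet this rule are counted but not reported here. The log2 CPM of the correlations used an offset of 1. Shares of cells were computed after thinning to 5000 counts per cell, and intervals are exact (Clopper-Pearson). The tests and the thinning were checked on simulated data. Alternatives were DESeq2 1.42.0, no filter on low counts, only the groups compared, a replicate block, leaving out each library, high doublet scores left out, all variable genes, resolution 0.5, cells with more than 1500 genes, no cycling cells, and single clusters. Promoter sequences are from RefSeq on GRCm38.p6.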

Additional observations from a re-analysis of the deposited data

Results flagged for a closer look

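Among the 5 genes, 4 differences between cell types in the effect of the knockout passed a test of the difference itself, an interaction term in edgeR over the 4 XY libraries with the library as a block. The effect in supporting cells was the more negative for *Twist1* (the interstitial log2 fold change was higher by 1.27, adjusted p = 7.78e-05), *Tcf21* (1.12, adjusted p = 0.000265) and *Maf* (0.99, adjusted p = 0.000166), where 18.7% of 17077 genes passed. These 3 stayed past the threshold in DESeq2, with each XY library left out and without the cells with the highest doublet scores. The supporting cells of dKO XY also had a lower sum of interstitial markers than those of control XY, by the values given above, and the part of this in the differences was not tested. *Tcf4* differed slightly between interstitial and Leydig cells (0.19, adjusted p = 0.0481, where 11.5% of 16579 genes passed), with neither effect called on its own. It did not pass in DESeq2 (adjusted p = 0.1) or with any XY library left out (adjusted p from 0.0957 to 0.294).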

How the results depend on the processing

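The counts of genes called moved by over 1.5 times as follows. For dKO XY against control XY, no filter on low counts gave 1710 in interstitial cells (1041 as reported), 2403 in Leydig cells (1155), 216 in pericytes (25) and 1758 in epithelial cells (922). For control XX against control XY it gave 1323 in pericytes (874) and 1356 in epithelial cells (596). DESeq2 gave 1228 for the difference between interstitial and Leydig cells (1909), using only the 2 groups compared gave 46 in pericytes, and leaving out high doublet scores gave 12. The stromal cluster alone, with fewer cells, gave 0 for dKO XY against control XY (948 at an unadjusted p under 0.05), 1556 for control XX against control XY (4206) and 1723 for dKO XY against control XX (4436). Leaving out 1 library gave, for dKO XY against control XY, 290 to 1190 in interstitial, 1000 to 1867 in Leydig, 17 to 50 in pericyte, 274 to 1352 in epithelial and 1111 to 2639 in supporting cells. For control XX against control XY it gave 2602 to 4425 in interstitial, 461 to 899 in pericyte and 151 to 1116 in epithelial cells, and for the difference between interstitial and Leydig cells 656 to 2282. Some of these settings use fewer cells or samples, and the cause of the changes was not tested.

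Equal replicate numbers did not go with alike deviations in all 3 groups. The correlations of deviations over 9121 genes were 0.225 between the XY groups, and -0.442 for control XY and -0.467 for dKO XY with control XX. What the deviations of the groups have in common was not tested. With the replicate block, dKO XY against control XY gave 684 genes in interstitial cells, 2626 in Leydig cells and 12 in pericytes. Of the values of named genes under alternatives to a called result, 943 kept sign and call, 116 kept the sign only and 4 turned sign. Of those that turned, *Twist1* (-0.089) and *Msc* (-0.98) did so for dKO XY against control XX in the stromal cluster. *Osr1* (0.11) did so for dKO XY against control XY in the stromal cluster, and *Foxp2* (-0.11) in the *Sostdc1* and *Inhba* cluster.

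Some values that were not called also turned sign. For dKO XY against control XY in interstitial cells, these were *Prrx1* at resolution 0.5 (0.067) and without cycling cells (0.39), *Maf* in the stromal cluster (0.23), and *Tcf4* without cycling cells (-0.0059) and in the stromal cluster (-0.0097). In Leydig cells they were *Maf* (0.073) and *Tcf21* (0.34) without high doublet scores, *Tcf21* at resolution 0.5 (0.011), and *Prrx1* with all variable genes (-0.0021) and at resolution 0.5 (-0.034). In pericytes, *Maf* was at -0.011 at resolution 0.5 and -0.041 with cells of more than 1500 genes, and in the finer Sertoli cluster *Tcf4* was at -0.24. For control XX against control XY in epithelial cells, *Maf* was at 0.027 without a filter, 0.075 with the replicate block, 0.0069 with all variable genes and 0.022 with cells of more than 1500 genes.

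Leaving out 1 library gave ranges that cross 0 as follows. For control XX against control XY, *Maf* ranged from -0.35 to 0.51 and *Prrx1* from -0.054 to 1.40 in epithelial cells. *Tcf21* ranged from -0.30 to 0.36 in interstitial cells and from -0.60 to 0.11 in pericytes, where *Maf* ranged from -0.26 to 0.13 and *Tcf4* from -0.26 to 0.070. For dKO XY against control XY, the ranges in pericytes were -0.15 to 0.22 for *Maf*, -0.25 to 0.040 for *Tcf4* and -0.23 to 0.035 for *Twist1*. In Leydig cells they were -0.11 to 0.14 for *Prrx1* and -0.82 to 0.089 for *Twist1*, and in interstitial cells -0.090 to 0.13 for *Tcf4*. For dKO XY against control XX supporting cells, *Tcf21* ranged from -0.059 to 2.06. For the difference between interstitial and Leydig cells, *Prrx1* ranged from -0.29 to 0.080, *Tcf21* from -0.18 to 0.037 and *Twist1* from -0.78 to 0.0078. Where a group was left with 1 library, it was assumed to vary like the others. *Twist1* in dKO XY against control XX supporting cells had an adjusted p of 0.0559 in DESeq2. With 2 libraries per group and as few as 30 cells of a type, small differences could not be shown.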

Other observations

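*Tcf12*, which encodes another E-protein and was chosen after its values were seen, was at 472 and 429.5 CPM in control XX supporting cells, 93.8 and 115 CPM in control XY and 110 and 127 CPM in dKO XY. It rose in control XX over control XY (log2 fold change 2.06 ± 0.15, adjusted p = 3.06e-06), the direction of *Tcf4*, whereas *Tcf3* had 88.8 to 104 CPM over the 6 libraries and was not called. The 4 *Id* genes rose in control XX supporting cells as well, from 1.81 to 1.93 on the log2 scale, where 48.3% of all genes were called. In dKO XY, replicate 1 stood above replicate 2 for each *Id* gene in both cell types, for example with 638 and 252 CPM of *Id3* in interstitial cells and 260 and 78.4 CPM in supporting cells. None of the 4 was called there between dKO XY and control XY.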
